A study of Mus musculus with 17 samples.

Results

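The glucocorticoid receptor gene *Nr3c1* and 9 genes known to respond to glucocorticoids were examined in mouse skeletal muscle. The response genes were *Fkbp5*, *Tsc22d3*, *Klf15*, *Zbtb16*, *Cebpb*, *Cebpd*, *Mt1*, *Mt2* and *Glul*. They were chosen by name, and a gene was taken from the table through the probe sets that carry its symbol alone, keeping the probe set with the highest mean over the 17 arrays. All 10 genes were found among the 19938 genes tested, and none was lost to a filter. *Glul* was the only one of them with more than 1 such probe set.

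Total RNA of skeletal muscle from 17 male wildtype C57BL/6N mice, 5-6 months old, was hybridised with 1 array per mouse. The mice were 10 to 16 weeks old when the drug or buffer was injected. The 7 Con, SD mice had received citrate buffer in place of the drug and ate standard chow. The 5 STZ, SD mice had received streptozotocin (STZ), a compound that destroys the insulin-producing beta cells of the pancreas, at 65 mg/kg on 5 consecutive days and ate the same chow. The 5 STZ, BEZ mice had received STZ and then, from 2 weeks afterwards, a diet with the fibrate drug bezafibrate (BEZ), an activator of all PPAR isoforms, for 8 weeks. The labels give the BEZ diet as 0.25% or 0.5% without saying which mouse ate which, so these mice formed 1 group, and the study's methods describe the drug doses and the control treatment somewhat differently from the labels. The sources used here do not name the muscle. Control mice on the BEZ diet were not analysed here.

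Glucocorticoids such as corticosterone enter the cell and bind the receptor encoded by *Nr3c1*, which is held ready in the cytoplasm by heat shock proteins and their partner proteins. The loaded receptor moves to the nucleus, binds DNA and recruits coactivators. In skeletal muscle this route is known for shifting fuel use away from glucose and for promoting protein breakdown and the release of amino acids, glutamine above all. The response genes examined here fall into an inhibitor of the receptor (*Fkbp5*), a mediator of the anti-inflammatory action (*Tsc22d3*), transcription factors (*Klf15*, *Zbtb16*, *Cebpb*, *Cebpd*), the metal-binding metallothioneins (*Mt1*, *Mt2*) and glutamine synthetase (*Glul*). Insulin, cytokines, fasting and zinc also act on several of them.

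*Mt1* and *Mt2* are neighbours in the genome and were among the genes that moved together, so the bases before their transcription starts are printed here, 5′ to 3′ and ending at the base before the start. The sequences are those of RefSeq on build GRCm38.p6, both on the + strand, at chr8:94178839-94179088 for *Mt1* and at chr8:94172368-94172617 for *Mt2*. Capitals mark the matches to a glucocorticoid response element, GNACA and TGTNC spaced by 3 bases of any kind, to a metal response element, TGCACNC or TGCGCNC, and to a C/EBP site, TTGCNNAA, each searched on both strands.
Mt1: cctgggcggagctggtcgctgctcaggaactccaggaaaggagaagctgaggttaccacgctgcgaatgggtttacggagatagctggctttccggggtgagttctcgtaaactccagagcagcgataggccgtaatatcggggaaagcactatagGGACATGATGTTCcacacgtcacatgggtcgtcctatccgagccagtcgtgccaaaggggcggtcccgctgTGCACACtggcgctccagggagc
Mt2: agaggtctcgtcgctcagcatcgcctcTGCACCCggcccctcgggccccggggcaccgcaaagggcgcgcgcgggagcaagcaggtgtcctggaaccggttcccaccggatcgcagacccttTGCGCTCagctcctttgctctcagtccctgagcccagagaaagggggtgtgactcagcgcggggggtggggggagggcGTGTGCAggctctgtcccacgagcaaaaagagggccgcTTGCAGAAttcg
The *Mt1* run holds GGACATGATGTTC, a match to the glucocorticoid response element, at positions -94 to -82 from the start, and 0.475% of the 32851 RefSeq promoter windows of 300 bases hold such a match. It also holds 1 metal response element, at -23 to -17. The *Mt2* run holds 3 metal response elements, the one nearest to the start on the - strand, and a C/EBP match at -12 to -5. At least 1 metal response element of either form is in 25.7% of all windows, 2 or more are in 7.11% and 4 or more in 0.517%. A C/EBP match is in 10.8%. The windows extend 50 bases past the start, where *Mt1* had 2 more metal response elements and *Mt2* had 1 more. Promoter windows were at hand for 7 of the 10 genes, with the exception of *Nr3c1*, *Zbtb16* and *Cebpd*. In the other windows the search found a half-site, AGAACA, in 1 of those of *Tsc22d3* (19% of all windows hold it) and 1 metal response element of the TGCGCNC form in each of *Klf15* and *Glul*, while the letters searched for were not in the windows of *Fkbp5* and *Cebpb*. These matches are descriptions of the sequence, and binding was not measured.

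Levels are log2 expression values on the scale of robust multi-array averaging (RMA), on which a difference of 1 is a doubling. Array medians ran from 6.22 to 6.32. The mean level of 15 skeletal muscle markers lay between 12.7 and 13.2 on every array. The array of Con, SD mouse 1 stood apart, with a mean level of 13 hepatocyte markers of 11.8 against 7.43 to 9.77 on the other control arrays, 7.98 to 8.93 in STZ, SD and 7.60 to 8.34 in STZ, BEZ. Of these 13 markers 1 was called lower in STZ, SD than in Con, SD (median difference -0.76) and 6 were called lower in STZ, BEZ than in Con, SD (median difference -1.29). Over all genes 11.9% and 8.45% were called lower in these comparisons. Without this array 8 of the 10 genes still passed the test between STZ, SD and Con, SD and 3 between STZ, BEZ and Con, SD, as with it. Means of 12 leukocyte markers overlapped between groups (6.22 to 6.45 for Con, SD, 6.18 to 6.55 for STZ, SD and 6.20 to 6.43 for STZ, BEZ), and 0 of the 12 passed the test (limma) between STZ, SD and Con, SD, with 1 at an unadjusted p under 0.05. In bulk tissue, fewer cells of a type and less RNA per cell cannot be told apart. Nothing says how mice shared cages, litters or array runs, so batches could not be examined.

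STZ, SD muscle had higher levels of 8 of the 10 genes than Con, SD muscle, and all 8 were response genes. *Cebpd* rose most, 2.65-fold, followed by *Klf15* at 1.85-fold, and *Fkbp5*, *Zbtb16*, *Cebpb*, *Mt1*, *Mt2* and *Glul* rose between 1.46-fold and 1.58-fold. The receptor gene and *Tsc22d3* did not pass the test. The test was a linear model over all 17 arrays (limma) with p-values adjusted over all genes, and a gene counted as called at an adjusted p under 0.1. The model assumes that a gene has the same spread in every group. In the same comparison 25.8% of all genes were called, 13.9% as higher and 11.9% as lower, so that calls were common in this muscle. The median difference of the 10 genes was 0.62 on the log2 scale, beside -0.01 over all genes. For 3 of the 10, *Klf15*, *Zbtb16* and *Cebpb*, every STZ, SD array lay above every Con, SD array, which held for 4.87% of all genes, and for 3.43% every STZ, SD array lay below.

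**Figure D1:**
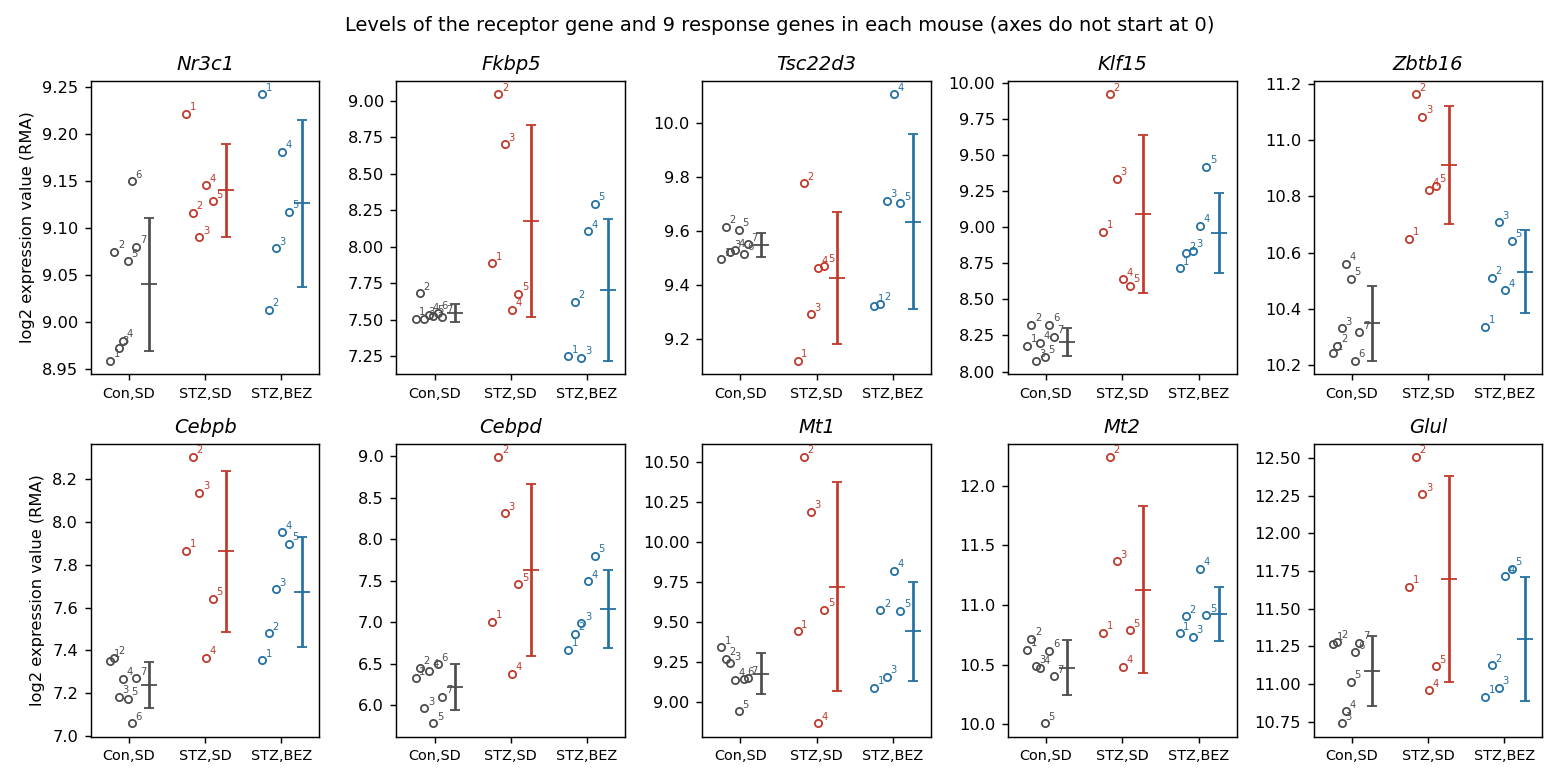
Levels of the 10 genes on each array, in log2 RMA units on axes that do not start at 0. Each circle is 1 mouse with its array number, and the bar beside each group gives the mean and SD (n = 7 for Con, SD, n = 5 for STZ, SD and for STZ, BEZ). The Con, SD mice lie close together for most genes, while STZ, SD arrays 2 and 3 lie at the top for *Fkbp5*, *Klf15*, *Zbtb16*, *Cebpb*, *Cebpd*, *Mt1*, *Mt2* and *Glul*.

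The receptor gene *Nr3c1* varied little. Its level was lowest at 8.96, 9.06 at the median and highest at 9.15 in Con, SD, and it was 9.22, 9.12, 9.09, 9.15 and 9.13 on STZ, SD arrays 1 to 5. On STZ, BEZ arrays 1 to 5 it was 9.24, 9.01, 9.08, 9.18 and 9.12. The 3 groups overlapped, and only 1 STZ, SD array lay above the highest control. The difference between STZ, SD and Con, SD was 0.10 ± 0.05 (SE) on the log2 scale, with a 95% interval from -0.01 to 0.21 and an adjusted p of 0.199 (limma), so that the interval leaves room for a rise of up to 1.16-fold.

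*Fkbp5* encodes a co-chaperone that lowers the affinity of the receptor for its hormone and is itself induced by the receptor. Its Con, SD levels were confined to 7.51 to 7.68 with a median of 7.52, and STZ, SD arrays 1 to 5 read 7.89, 9.04, 8.70, 7.57 and 7.68. Arrays 2 and 3 stood far above all controls and arrays 4 and 5 lay within the control range. STZ, BEZ arrays 1 to 5 read 7.25, 7.62, 7.24, 8.11 and 8.30, so that arrays 1 and 3 lay below every control and arrays 4 and 5 above. The rise in STZ, SD was 0.63 ± 0.23 (adjusted p = 0.0628, limma). It was 0.41 (adjusted p = 0.195) without STZ, SD array 2 and 0.50 (adjusted p = 0.178) without STZ, SD array 3, so the call rested on each of these mice.

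*Tsc22d3* encodes GILZ, a protein that mediates part of the anti-inflammatory action of glucocorticoids. The Con, SD arrays lay between 9.50 and 9.62 with a median of 9.53, and STZ, SD arrays 1 to 5 read 9.12, 9.78, 9.29, 9.46 and 9.47. Of these, 4 lay below the lowest control and array 2 lay above the highest. STZ, BEZ arrays 1 to 5 read 9.32, 9.33, 9.71, 10.11 and 9.70, on both sides of the control range. The difference between STZ, SD and Con, SD was -0.12 ± 0.12, with an interval from -0.37 to 0.13 and an adjusted p of 0.498.

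The transcription factor genes gave the changes that held best. *Klf15*, which encodes a Krüppel-like factor that drives amino acid breakdown in muscle, ran from 8.07 to 8.32 in Con, SD with a median of 8.20 and read 8.97, 9.92, 9.33, 8.64 and 8.59 on STZ, SD arrays 1 to 5. All 5 lay above the highest control. STZ, BEZ arrays 1 to 5 read 8.71, 8.82, 8.84, 9.01 and 9.42, again all above the controls. The rise in STZ, SD was 0.88 ± 0.18 (adjusted p = 0.00203, limma).

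*Zbtb16* encodes PLZF, a zinc finger repressor that glucocorticoids induce in many tissues. It ran from 10.22 to 10.56 in Con, SD with a median of 10.32 and read 10.65, 11.16, 11.08, 10.82 and 10.84 on STZ, SD arrays 1 to 5, without overlap. On STZ, BEZ arrays 1 to 5 it read 10.34, 10.51, 10.71, 10.47 and 10.64, of which 3 lay within the control range and 2 above it. The rise in STZ, SD was 0.56 ± 0.09 with the smallest adjusted p of the 10 genes, 0.000397 (limma).

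*Cebpb* and *Cebpd* encode C/EBPβ and C/EBPδ, factors that respond to glucocorticoids and to cytokines. *Cebpb* ran from 7.06 to 7.37 in Con, SD with a median of 7.27 and read 7.87, 8.30, 8.14, 7.37 and 7.64 in STZ, SD, where array 4 lay just above the highest control. In STZ, BEZ it read 7.35, 7.48, 7.69, 7.95 and 7.90, and all but array 1 lay above the controls. Its rise in STZ, SD was 0.63 ± 0.14 (adjusted p = 0.00374). *Cebpd* had the widest range of the 10 genes, from 5.78 to 6.50 in Con, SD with a median of 6.33 and 7.01, 8.99, 8.31, 6.38 and 7.46 on STZ, SD arrays 1 to 5. Only array 4 lay within the control range. In STZ, BEZ it read 6.67, 6.86, 6.99, 7.49 and 7.80, with every array above the controls. Its rise in STZ, SD was 1.41 ± 0.33 (adjusted p = 0.0059), with an interval of the fold change from 1.65 to 4.27.

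The metallothioneins bind zinc and copper and scavenge oxidants. *Mt1* ran from 8.94 to 9.34 in Con, SD with a median of 9.15 and read 9.44, 10.53, 10.19, 8.86 and 9.57 on STZ, SD arrays 1 to 5, and 9.08, 9.57, 9.16, 9.82 and 9.57 on STZ, BEZ arrays 1 to 5. In STZ, SD 4 arrays lay above all controls and array 4 below all of them. *Mt2* ran from 10.01 to 10.72 in Con, SD with a median of 10.48 and read 10.77, 12.24, 11.37, 10.48 and 10.79 in STZ, SD, and 10.76, 10.91, 10.73, 11.30 and 10.91 in STZ, BEZ. Again STZ, SD array 4 was the lowest and array 2 the highest, and all 5 STZ, BEZ arrays lay above the controls. The rises in STZ, SD were 0.54 ± 0.21 for *Mt1* (adjusted p = 0.0745) and 0.66 ± 0.22 for *Mt2* (adjusted p = 0.0448). The *Mt1* rise was 0.34 (adjusted p = 0.226) without STZ, SD array 2 and 0.43 (adjusted p = 0.203) without array 3, and its call was also lost without Con, SD array 4 or 5 (adjusted p = 0.102 and 0.12). The *Mt2* rise was 0.38 (adjusted p = 0.111) without STZ, SD array 2 and 0.60 (adjusted p = 0.111) without array 3.

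*Glul* encodes glutamine synthetase, which joins ammonia to glutamate. It ran from 10.74 to 11.28 in Con, SD with a median of 11.21 and read 11.64, 12.50, 12.26, 10.96 and 11.12 on STZ, SD arrays 1 to 5. STZ, BEZ arrays 1 to 5 read 10.92, 11.12, 10.98, 11.71 and 11.76. Arrays 1 to 3 of STZ, SD and arrays 4 and 5 of STZ, BEZ lay above all controls and the others lay within the control range. The rise in STZ, SD was 0.61 ± 0.23 (adjusted p = 0.0781, limma), and its other probe set gave 0.78 ± 0.25 (adjusted p = 0.0361 over all probe sets with 1 symbol). The tables used here do not place either probe set in the genome, and hybridisation of near-identical gene copies was not examined. This call was the least firm of the 8, as leaving out 1 of 6 arrays ended it (Con, SD array 3, 4 or 5, or STZ, SD array 1, 2 or 3), with 0.41 and an adjusted p of 0.232 without STZ, SD array 2.

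**Figure D2:**
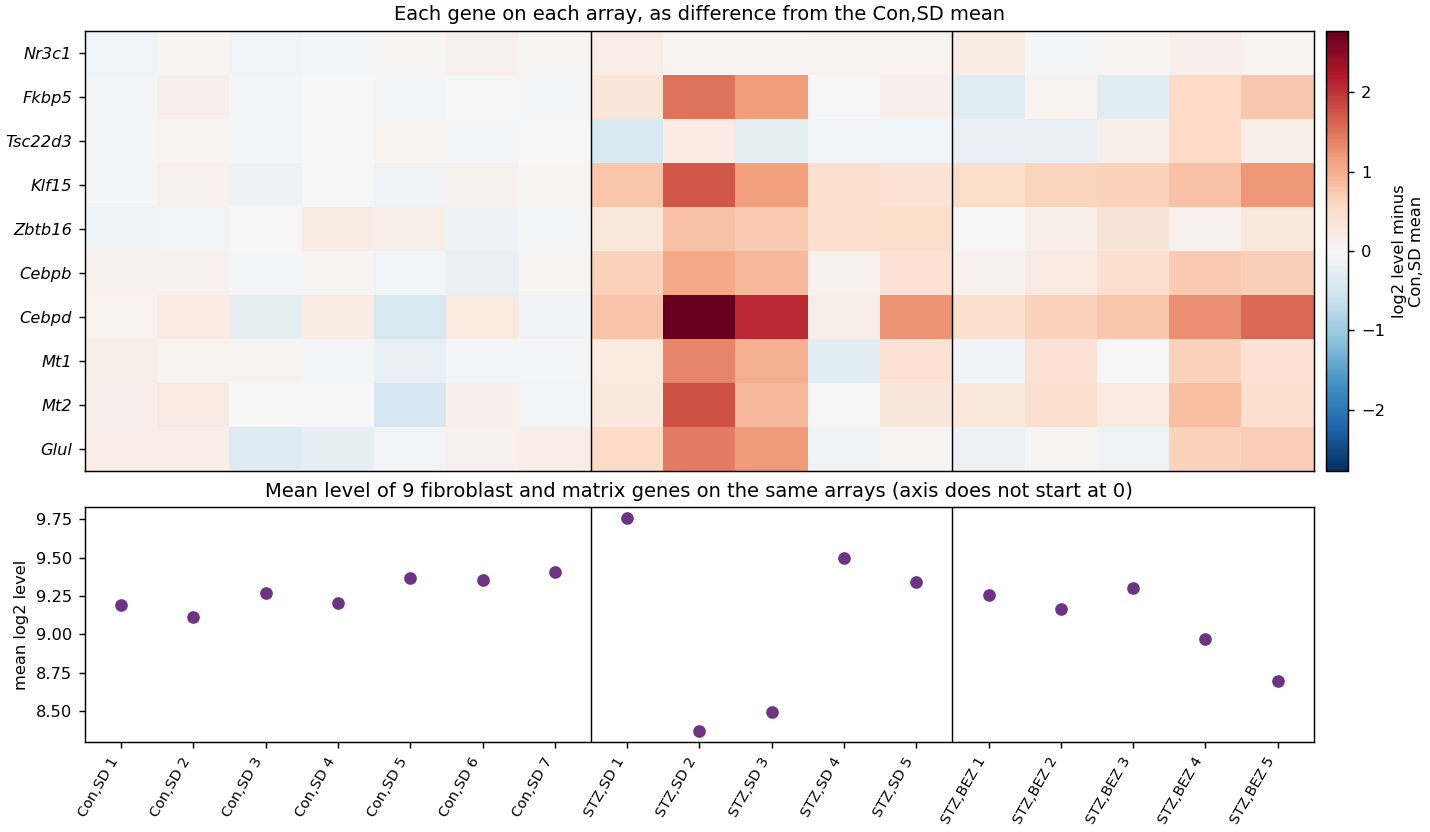
Upper panel, the level of each gene on each array minus the Con, SD mean of that gene, in log2 units by colour. Lower panel, the mean log2 level of 9 fibroblast and matrix genes on the same arrays, on an axis that does not start at 0. STZ, SD arrays 2 and 3 and STZ, BEZ arrays 4 and 5 are the reddest columns of their groups and have the lowest fibroblast levels of their groups.

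The response genes rose unevenly among the STZ mice, and the same mice stood at the top for gene after gene. In STZ, SD array 2 was the highest of its group for 9 of the 10 genes and array 3 among the top 2 for 8, while array 4 was the lowest for 6. In STZ, BEZ arrays 4 and 5 were among the top 2 for 9 and 7 genes, and array 1 was the lowest for 7. In Con, SD array 2 was the highest for 6. The mean of 9 fibroblast and matrix markers moved the other way on these arrays. It was 9.76, 8.37, 8.50, 9.50 and 9.34 on STZ, SD arrays 1 to 5 and 9.25, 9.17, 9.30, 8.97 and 8.70 on STZ, BEZ arrays 1 to 5, against 9.11 to 9.40 in Con, SD. Of these 9 markers 1, *Dpt*, passed the test between STZ, SD and Con, SD, at -0.89 ± 0.26, where 25.8% of all genes passed. The median difference of the 9 was -0.27. *Pdgfra*, *Lum* and *Postn* differed upward, by 0.20 ± 0.09, 0.30 ± 0.23 and 0.47 ± 0.41, and were not called. The *Postn* levels ran from 6.96 to 10.54 in STZ, SD. STZ, SD array 2, with the highest response genes, had the lowest fibroblast level of all 17 arrays. The mean of 11 adipocyte markers was 9.94 on Con, SD array 2 against 8.86 to 9.40 on the other controls, 8.44 on STZ, SD array 2 against 8.94 to 9.18 on the other STZ, SD arrays, and 8.68 to 9.53 in STZ, BEZ, and 1 of the 11, the leptin gene *Lep*, passed the test between STZ, SD and Con, SD, at -1.51 ± 0.32. The part of either marker list in the differences was not tested.

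The spread among mice can be set against that of other genes. The SD of *Fkbp5* was 0.0614 among Con, SD mice, 0.658 among STZ, SD mice and 0.484 among STZ, BEZ mice, so that the SD in STZ, SD was 10.7 times that in Con, SD. The same ratio was 5.65 for *Klf15*, 5.35 for *Tsc22d3*, 5.09 for *Mt1*, 3.78 for *Cebpd*, 3.46 for *Cebpb*, 3.01 for *Mt2*, 2.96 for *Glul*, 1.56 for *Zbtb16* and 0.699 for *Nr3c1*. Over all genes its median was 0.842, so most genes varied no more among STZ, SD mice than among controls. The median SD of the 10 genes was 0.119 for Con, SD, 0.602 for STZ, SD and 0.293 for STZ, BEZ, beside 0.141, 0.120 and 0.116 over all genes. *Tsc22d3* combined a wider spread in STZ, SD with no called difference in mean. A wider spread in STZ, SD was not particular to these genes. The SD of the mean level of the 10 was 0.0794 in Con, SD and 0.480 in STZ, SD. For the mean of 29 other glucocorticoid-responsive genes it was 0.114 and 0.281, and for that of 9 fibroblast markers 0.108 and 0.621. Other lists were less spread in STZ, SD, such as 14 cytokine genes (0.201 and 0.143). The spread was described and not tested. These SDs depart from the equal spread that the linear model assumes. For genes more spread in the smaller STZ, SD group, the SE, intervals and p-values against Con, SD may therefore look firmer than they are.

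**Figure D3:**
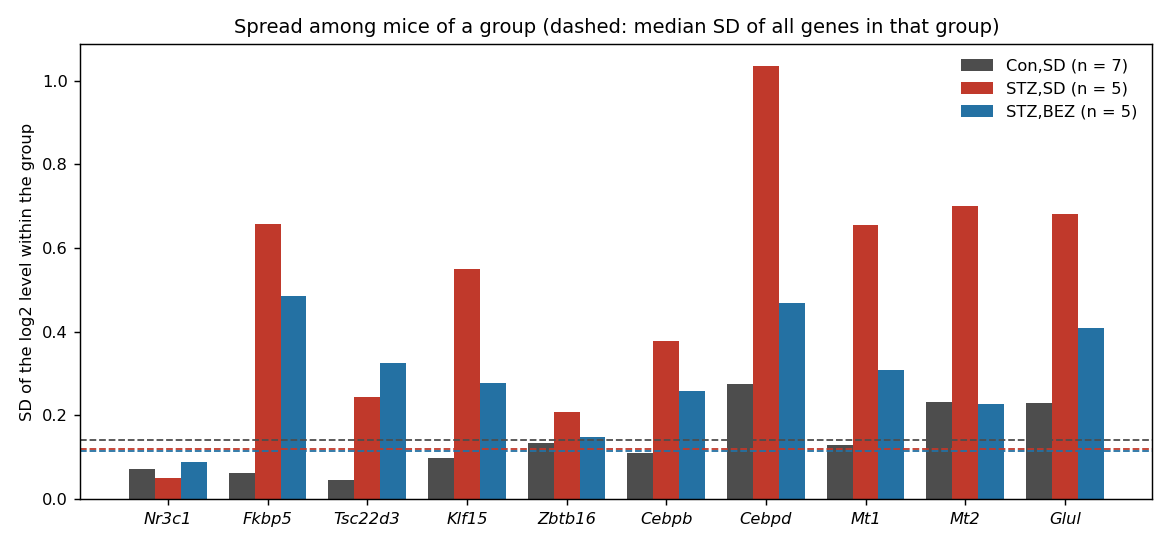
SD of the log2 level among the mice of each group, for the 10 genes. Dashed lines give the median SD over all genes in each group (0.141, 0.120 and 0.116 for Con, SD, STZ, SD and STZ, BEZ). The SD in STZ, SD exceeds that in Con, SD for 9 of the 10 genes, and *Nr3c1* is the exception.

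BEZ-fed STZ mice were compared with STZ mice on standard chow to see what the drug changed. None of the 10 genes passed the test in this comparison, in which 4 of the 19938 genes were called (0.0201%, all of them higher in STZ, BEZ, and 0% lower). Of the 10 differences 9 were negative, with a median of -0.24 beside 0.00163 over all genes, and SAM also called 0 of the 10. The STZ, SD arrays enter the comparison with Con, SD with the opposite sign, so a high STZ, SD array raises those differences and lowers these. Most of the response genes also moved together among mice, so the 9 are not separate observations. At an unadjusted p under 0.05 there was 1 of the 10, and 1134 of all genes. This was *Zbtb16*, at -0.38 ± 0.10 with an interval from -0.59 to -0.17, an unadjusted p of 0.00116 and an adjusted p of 0.703 (limma). Of the 5 STZ, BEZ arrays 4 lay below the lowest STZ, SD array for it.

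The other intervals were wide. They ran from -0.99 to 0.05 for *Fkbp5* (difference -0.47), from -1.21 to 0.27 for *Cebpd* (difference -0.47), from -0.93 to 0.13 for *Glul* (difference -0.40), from -0.75 to 0.19 for *Mt1* (difference -0.28) and from -0.70 to 0.29 for *Mt2* (difference -0.21). For *Cebpb* the difference was -0.19 (-0.50 to 0.12), for *Klf15* -0.13 (-0.53 to 0.27) and for *Nr3c1* -0.01 (-0.13 to 0.11). *Tsc22d3* was the single gene with a positive difference, 0.21 (-0.06 to 0.48). Intervals of this width do not show that the levels were alike. No gene of the 10 separated the groups without overlap, which 0.677% of all genes did as higher in STZ, BEZ and 0.487% as lower. Without STZ, SD array 2 the differences of *Klf15* and *Mt2* changed sign, to 0.08 and 0.07.

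**Figure D4:**
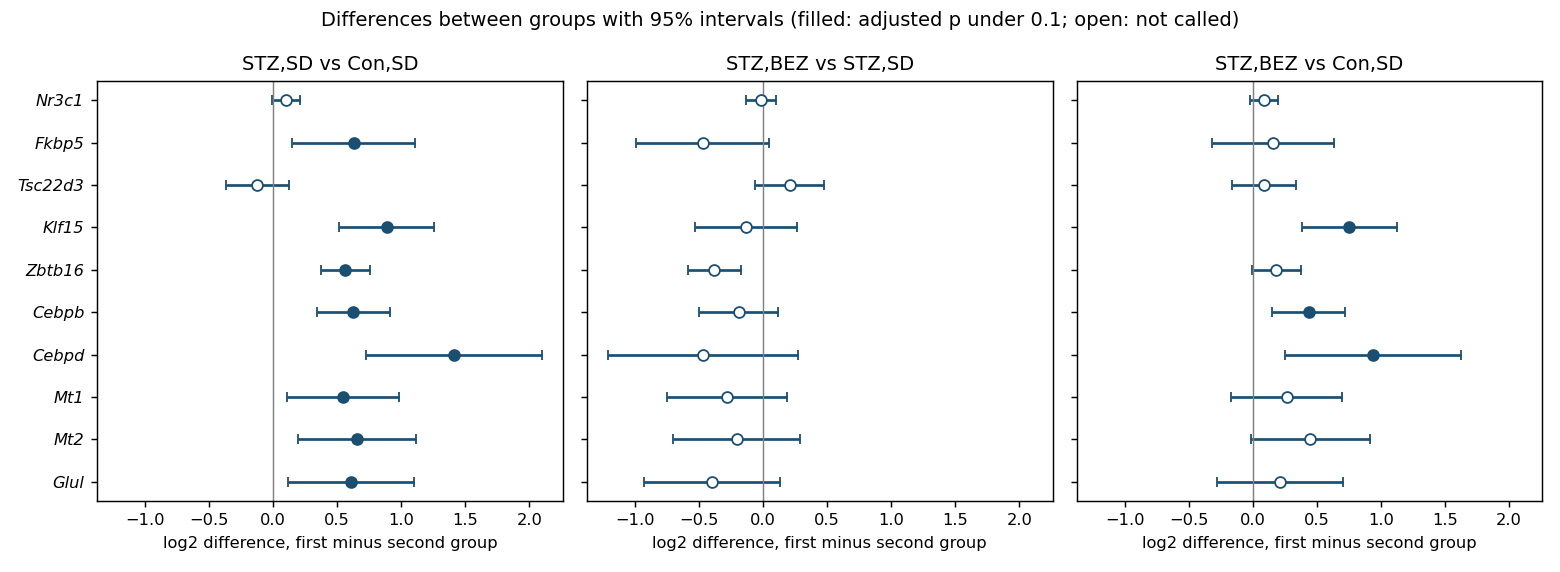
Differences in log2 level between groups, first minus second, with 95% intervals from limma. Filled circles mark an adjusted p under 0.1 and open circles the rest. There are 8 filled circles in STZ, SD against Con, SD, 0 in STZ, BEZ against STZ, SD and 3 in STZ, BEZ against Con, SD.

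Against Con, SD, the STZ, BEZ mice had higher levels of 3 of the 10 genes, all of them transcription factors, where 21.6% of all genes were called, 13.1% as higher and 8.45% as lower. *Klf15* was higher by 0.75 ± 0.18 (1.68-fold, adjusted p = 0.00796), *Cebpb* by 0.44 ± 0.14 (1.35-fold, adjusted p = 0.0389) and *Cebpd* by 0.94 ± 0.33 (1.92-fold, adjusted p = 0.0624). The groups did not overlap for *Klf15*, *Cebpd* and *Mt2*, which 6.01% of all genes did as higher in STZ, BEZ and 2.5% as lower. *Mt2* was not called at 0.45 (interval from -0.01 to 0.91, adjusted p = 0.179). The remaining differences were 0.27 for *Mt1*, 0.21 for *Glul*, 0.18 for *Zbtb16*, 0.16 for *Fkbp5*, 0.09 for *Tsc22d3* and 0.09 for *Nr3c1*. The other probe set of *Glul* gave 0.45 ± 0.25 (adjusted p = 0.236 over all probe sets with 1 symbol, limma). The median over the 10 genes was 0.24 beside -0.01 over all genes. The *Cebpb* call was lost without STZ, BEZ array 4 or 5 (adjusted p = 0.109 and 0.104), and the *Cebpd* call without Con, SD array 3 or 5 or STZ, BEZ array 4 or 5 (adjusted p from 0.102 to 0.158). This comparison and the one before share the STZ, BEZ mice, and it shares the Con, SD mice with the first. The first and the one before share the STZ, SD mice.

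The genes around the receptor were taken from a list of its partners, coactivators and hormone-converting enzymes, of which 19 were measured. Between STZ, SD and Con, SD 7 were higher and 2 were lower, with a median of 0.02, where 13.9% of all genes were called higher and 11.9% lower. The coactivator genes *Crebbp*, *Ncoa1* and *Ep300* rose by 0.42 ± 0.06, 0.30 ± 0.07 and 0.29 ± 0.08, and the importin gene *Ipo13* rose by 0.52 ± 0.09. The mineralocorticoid receptor *Nr3c2*, which also binds corticosterone, rose by 0.29 ± 0.07, with levels of 7.13 to 7.42 in Con, SD and 7.39 to 7.72 in STZ, SD. The chaperone genes *Stip1* and *Hspa8*, whose products help to assemble the receptor with its chaperones, fell by 0.55 and 0.27 on the log2 scale. *Hsd11b1*, which regenerates active hormone inside cells, differed by -0.53 ± 0.25 (adjusted p = 0.146), and *Fkbp4*, a co-chaperone that acts against *Fkbp5*, by -0.18 ± 0.08 (adjusted p = 0.112), and neither passed. The *Hsd11b1* levels ran from 7.10 to 9.14 in Con, SD with a median of 7.35, and from 6.96 to 7.35 in STZ, SD. Its control mean includes the array with high hepatocyte markers. *H6pd*, of the same list, was called higher by 0.26 ± 0.06 (adjusted p = 0.0091, limma). Between STZ, BEZ and STZ, SD 0 of the 19 passed (limma), and the 1 at an unadjusted p under 0.05 was *Fkbp4* at 0.21 ± 0.08 (adjusted p = 0.806). Between STZ, BEZ and Con, SD 7 were higher and 2 lower, where 13.1% of all genes were called higher and 8.45% lower.

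Of 29 other glucocorticoid-responsive genes 14 were higher in STZ, SD than in Con, SD and 0 were lower, with a median of 0.53. Over all genes 13.9% were called higher and 11.9% lower. *Sesn1*, which restrains growth signalling through mTORC1, rose 2.74-fold (1.45 ± 0.22, adjusted p = 0.00027). *Pdk4*, which shuts glucose carbon out of the mitochondrion, rose 2.01-fold (1.01 ± 0.15, adjusted p = 0.000263). The forkhead factor genes *Foxo3* and *Foxo1*, which insulin restrains, rose by 0.77 ± 0.11 and 0.72 ± 0.14, *Cited2*, which encodes a regulator of p300 and CBP, by 0.78 ± 0.13, and *Zfp36*, which encodes a protein that destabilises cytokine mRNAs, by 0.63 ± 0.16. The clock gene *Per1* was called higher by 0.95 ± 0.38 (adjusted p = 0.0878, limma), but the groups overlapped. Its levels ran from 7.07 to 8.85 in Con, SD with a median of 8.65. In STZ, SD they ran from 8.07 to 9.93 with a median of 9.02. *Sgk1*, a kinase gene often used as a readout of the receptor, was not called at -0.20 ± 0.10 (adjusted p = 0.193). In STZ, BEZ against STZ, SD 0 of the 29 were called (limma) and 5 had an unadjusted p under 0.05. These were *Cited2* at 0.42 ± 0.14, the muscle ubiquitin ligase gene *Trim63* at -0.44 ± 0.19, the PI3-kinase subunit gene *Pik3r1* at -0.57 ± 0.25, *Sesn1* at -0.53 ± 0.24 and *Pdk4* at -0.36 ± 0.17, with adjusted p-values from 0.778 to 0.87. In STZ, BEZ against Con, SD 9 were higher and 0 lower, beside 13.1% and 8.45% of all genes.

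Lists that follow the roles of the single genes were read against the 25.8% of all genes called in this comparison. Of 8 amino acid breakdown genes linked to *Klf15*, 0 were higher and 2 lower in STZ, SD, *Gpt* by -0.28 ± 0.09 and *Tdo2* by -1.48 ± 0.60, the second of them a liver enzyme gene whose control mean includes the array with high hepatocyte markers. *Bcat2* and *Bckdha*, for breakdown of branched-chain amino acids in muscle, differed by -0.07 ± 0.09 and -0.06 ± 0.09 and were not called. Among 4 other C/EBP family genes, 0 were higher and *Ddit3* was lower by -0.22 ± 0.09, while *Cebpa* was not called at -0.18 ± 0.16. Of 8 genes for other metallothioneins and zinc handling 1 was higher and 2 were lower. The metal sensor gene *Mtf1* rose by 0.26 ± 0.05, the zinc transporter genes *Slc30a2* and *Slc39a1* differed by -0.66 ± 0.11 and -0.33 ± 0.13, and *Mt3* and *Mt4* were not called at 0.05 ± 0.07 and 0.07 ± 0.09. Of 9 genes of glutamine and glutamate handling 0 were higher, and *Got1*, an aspartate aminotransferase gene, was lower by -0.23 ± 0.09. In STZ, BEZ against STZ, SD 0 genes of these lists passed the test (limma), and 1, *Bckdha*, had an unadjusted p under 0.05 (0.24 ± 0.10, adjusted p = 0.829).

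Because *Cebpb*, *Cebpd* and the metallothioneins also respond to cytokines, the list of IL-6 and STAT3 signalling and acute phase genes was read beside them. Of 14 measured, 7 were higher in STZ, SD than in Con, SD and 1 was lower. In that comparison 13.9% of all genes were called higher and 11.9% lower, the shares to set beside the lists here. The receptor genes *Osmr*, *Il6ra* and *Il6st* rose by 0.67 ± 0.12, 0.92 ± 0.25 and 0.46 ± 0.08, *Stat3* by 0.21 ± 0.05, and the NF-κB partner genes *Nfkbia* and *Bcl3* by 0.58 ± 0.17 and 0.31 ± 0.09, and *Socs3* by 0.32 ± 0.12. The lists share some genes. *Nfkbia* is also counted among the other glucocorticoid-responsive genes called higher, and *Junb*, not called, is also in the immediate early list. *Serpina3n*, an acute phase gene, was lower by -0.83 ± 0.27, but its Con, SD levels were spread from 8.07 to 10.34 with a median of 8.61, against 7.91 to 8.27 in STZ, SD. It is also a liver gene, and the control mean includes the array with high hepatocyte markers. Of 11 immediate early genes 2 were higher, *Btg2* by 0.73 ± 0.19 and *Ier3* by 0.30 ± 0.09. No gene of either list was called in STZ, BEZ against STZ, SD (limma), with 1 of each at an unadjusted p under 0.05. These were *Serpina3n* at -0.72 ± 0.29 and *Nr4a1* at 0.37 ± 0.15. The *Serpina3n* levels in STZ, BEZ, 7.12 to 7.57, all lay below those in STZ, SD, as for 0.487% of all genes. Of the cytokine list 6 were higher and 2 lower in STZ, BEZ than in Con, SD, and 3 immediate early genes were higher. There 13.1% of all genes were called higher and 8.45% lower. Of 12 endothelial markers 8 were higher in STZ, SD than in Con, SD, among them *Eng* by 0.57 ± 0.08 and *Robo4* by 0.36 ± 0.08. The mean level of the 12 ran from 8.57 to 8.77 in Con, SD, 8.77 to 9.04 in STZ, SD and 8.91 to 9.01 in STZ, BEZ. Of 7 satellite cell markers 2 were higher in STZ, SD than in Con, SD, *Cdh15* by 0.39 ± 0.11 and *Myf5* by 0.31 ± 0.08, and the mean level of the 7 ran from 7.20 to 7.40 in Con, SD, 7.44 to 7.49 in STZ, SD and 7.38 to 7.45 in STZ, BEZ. The part of cytokine signalling or of vessel or satellite cell content in the changes of the response genes was not tested.

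To describe which genes tracked each of the 10 among mice, group means were removed and Pearson's r was taken over the 17 arrays, which share the group structure and the normalization, so r is given without a p. Nearest to *Fkbp5* were *Abcb1b* (r = 0.953), *Eif4ebp1* (0.950) and *Plin4* (0.948), nearest to *Klf15* *Rsrp1* (0.953), nearest to *Zbtb16* *Vgll2* (0.898), and nearest to *Tsc22d3* *Nr4a3* (0.802). *Cebpb* was followed by *Depp1* and *Klf6* (both 0.938) and *Cebpd* by *Eif4ebp1* and *Depp1* (both 0.920). *Mt1* was followed by *Nfkbia* (0.919), *Mt2* by *Wbp1l* (0.924) with *Foxo1* also among its nearest 3 (0.907), *Glul* by *Sema7a* (0.949) and *Nr3c1* by *Chrna5* (0.858). Among *Fkbp5*, *Klf15*, *Cebpb*, *Cebpd*, *Mt1*, *Mt2* and *Glul*, a set of 7 picked after the values were seen, the 21 pairs had r from 0.772 to 0.927. Without STZ, SD array 2 and STZ, BEZ array 5, the 2 arrays farthest from their group mean for *Fkbp5*, the range was 0.723 to 0.900 over 15 arrays. As the set was picked with the values known, lower r for the genes left out of it was built in. *Zbtb16* had r from 0.340 to 0.541 with the 7 and *Tsc22d3* from 0.401 to 0.511, and over the 15 arrays these ranges were 0.0645 to 0.339 and 0.115 to 0.363. *Nr3c1* had r from -0.53 to 0.03 with the other 9 genes.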

How the data were processed

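The authors isolated total RNA of skeletal muscle with a miRNeasy kit and DNase treatment, hybridised it to Affymetrix Mouse Gene 1.0 ST arrays, and made the deposited log2 values by RMA in Affymetrix Expression Console 1.2, which corrects background, quantile-normalizes the arrays and summarises the probes of each probe set. Quantile normalization gives all arrays nearly the same distribution, so a shift shared by most genes cannot be seen. The deposited table held 35556 probe sets on 17 arrays with values from 2.76 to 14.6 and none missing. Array data carry no counts, and the number of mice limits the precision.

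Of the probe sets 21789 carried 1 gene symbol in the platform annotation, 1621 several and 12146 none. Only the first kind was used, with the brightest probe set for each of the 999 genes that had more than 1, which left 19938 genes. A model with 3 group means was fitted over all 17 arrays (limma 3.58.1, R 4.3.3; lmFit, eBayes), and p-values were adjusted by Benjamini-Hochberg over all genes of a comparison, with a gene called under 0.1. Errors are SE for differences and SD for groups. The study's methods name SAM, which was run as an alternative with 100 permutations. The other alternatives were the 2 groups of a comparison alone, array weights, a filter on the 30% dimmest genes, the mean of all probe sets of a gene, median centring, a second quantile normalization, an adjusted p under 0.05, the hepatocyte marker level as a covariate, the replicate number as a block, and leaving out each array. The procedure was tested on simulated data.

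The 10 genes and the lists around them were chosen with earlier results of these data known, and 10 listed symbols were not analysed here. All 10 genes are named, with up to 6 genes per list, those of smallest adjusted p between STZ, SD and Con, SD, up to 3 between STZ, BEZ and STZ, SD, and some regulators whatever their values. *Ep300*, *H6pd*, *Socs3*, *Serpina3n* and *Lum* were named beyond this rule, after their values were seen. Promoter windows were RefSeq sequences of GRCm38.p6 from 250 bases before to 50 bases after the start.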

Additional observations from a re-analysis of the deposited data

Results flagged for a closer look

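Of 30 gene-by-group sets of arrays examined, 1 held a sample far from the others. Con, SD array 2 read 7.68 for *Fkbp5*, while the next highest control read 7.55, and the gap was 0.749 of the range of that group. About 1 in 20 such sets passes this limit by chance. The same array was the highest control for 6 of the 10 genes. It also had the highest mean level of 11 adipocyte markers of all arrays, 9.94.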

How the results depend on the processing

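Over the alternatives the 10 genes gave 640 values, of which 600 kept direction and side of the threshold, 32 lost a call, 3 gained one and 5 changed sign. *Klf15*, *Zbtb16*, *Cebpb* and *Cebpd* were called in STZ, SD against Con, SD under all 22 alternatives tried. Calls among the 10 genes in that comparison fell from 8 to 5 at an adjusted p under 0.05 and to 5 with the replicate block, and ranged from 4 to 8 with 1 array left out, 4 without STZ, SD array 2 or 3. In STZ, BEZ against Con, SD they went from 3 to 5 with SAM and to 1 with the replicate block, and ranged from 1 to 3 with 1 array left out, 1 without STZ, BEZ array 4 or 5. In STZ, BEZ against STZ, SD they remained 0. Over all genes, same-numbered arrays did not deviate together (15 pairs, r from -0.239 to 0.083). This cannot exclude a pairing that acts on few genes, so whether the numbers pair the mice is not known. Array weights ended the calls of *Fkbp5* and *Glul* (adjusted p = 0.124 and 0.179), and fitting only the groups compared ended that of *Mt1* (0.107). Genes called in STZ, BEZ against STZ, SD went from 4 to 8 with only the groups compared, 11 with array weights, 7 with SAM and 11 with the hepatocyte covariate (4 to 6 with 1 array left out). Genes called in STZ, BEZ against Con, SD went from 4298 to 2795 at an adjusted p under 0.05 (2998 to 4712 with 1 array left out), and those in STZ, SD against Con, SD ranged from 3814 to 5430. All 5 changes of sign were in values that were not called. With 1 array left out, the STZ, BEZ minus STZ, SD difference of *Nr3c1* ranged from -0.0428 to 0.0145 and was 0.0064 without STZ, SD array 1, with the highest value without STZ, BEZ array 2. That of *Klf15* ranged from -0.256 to 0.0752 and that of *Mt2* from -0.368 to 0.0719, both highest without STZ, SD array 2. The STZ, BEZ minus Con, SD difference of *Tsc22d3* ranged from -0.031 to 0.165, lowest without STZ, BEZ array 4. The cause was not tested. With 5 to 7 mice a group, differences anywhere within the intervals given remain possible.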
